A study of Mus musculus with 2 samples.

Results

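The 37 genes described here cover glycolysis, the fate of pyruvate, oxygen sensing and a few well-known hypoxia targets. They were taken by name, without a threshold on any measured value, and all 37 were found among the 29383 genes of the table. All 37 also passed the floor on low values, a scaled level of 1 CPM (reads of a gene relative to the total of its library) in the library where the gene was higher.

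Glycolysis splits glucose into pyruvate, and the heart of the mouse embryo relies on it heavily before it turns to fatty acids near birth. Glucose enters the cell through facilitative transporters and is trapped as a phosphate by hexokinase, and pyruvate then either becomes lactate or enters the mitochondrion through pyruvate dehydrogenase, which a family of kinases switches off. Low oxygen acts on this route through the hypoxia-inducible factors, transcription factors whose alpha subunits are marked for destruction by prolyl hydroxylases while oxygen is present.

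RNA was sequenced from the heart apex of mouse embryos at E12.5. The heterozygous control had the genotype Nkx2-5cre, Ezh2f/+, with 1 floxed Ezh2 copy, and the mutant had Nkx2-5cre, Ezh2f/f, with 2. Both carry Cre recombinase driven by Nkx2-5, a gene of the heart lineage, so cells outside that lineage should keep Ezh2, the gene of the H3K27 methyltransferase in the Polycomb complex PRC2. Apices of 8 hearts went into each group, which is represented by 1 library, so no spread between animals was measured and no p-value of the genotype can be given.

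Read totals were 13944617 (heterozygote) and 14122579 (mutant). Ezh2 itself had 493 reads against 319, a mutant-to-heterozygote ratio of 0.601 (0.521 to 0.694). Throughout, the first of 2 paired values is the heterozygote and the second the mutant, levels are CPM scaled by the trimmed mean of M-values (TMM), and each ratio is mutant over heterozygote with a 95% exact Poisson interval. Such an interval reflects read counting alone and says nothing about variation between pools of hearts. The labels call the samples cardiomyocytes without naming a sort. All 12 cardiomyocyte markers examined were present, with a summed level of 53977 against 54072 CPM. Single markers went apart within that sum, 6 above and 6 below a log2 ratio of 0. Of these, named after their values were seen, the atrial light chain gene Myl7 stood at 0.74 and Myh6 at 0.48, against -0.76 for the calcium pump inhibitor gene Pln and -0.31 for Tnni3. Whether such differences bear on the results below was not tested. Markers of other cell types were present too. Summed endothelial markers were at 1116 and 1078 CPM, and fibroblast and valve mesenchyme markers at 1301 and 1271 CPM. Epicardial markers were at 196 and 203 CPM, and smooth muscle and pericyte markers at 1617 and 1501 CPM. Most of this last sum came from Acta2, at 1107 and 936 CPM. Myh11, at 1.85 and 0.893 CPM, and Rgs5, at 3.55 and 0.481 CPM, were near the floor, all 3 named after their values were seen. Of the 7 markers in this sum, 2 had a log2 ratio above 0 and 5 below. Erythroid markers were lower in the mutant, with 13534 against 9150 CPM, a ratio of 0.676, and so were leukocyte markers, with 83.2 against 65.5 CPM. In such bulk samples fewer cells of a type and less RNA per cell cannot be told apart.

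Across the 37 genes the log2 ratio, taken with 1 CPM added to each level, had a median of 0.09, against -0.008 over all 16185 genes tested. It was above 0 for 21 members and below 0 for 16, where 48.8% of all genes were above 0 and 51.2% below. Under scaling by total counts the split was 27 to 10, and 61.9% of all genes were then above 0. On the same scale 6 members were at least 25% higher in the mutant, beside 12.4% of all genes, and 2 were at least 20% lower, the same distance on the log scale, beside 10.7%. As shares of the 37 members these are 16.2% and 5.41%. The 6 were Slc2a3, Slc2a1, Adm, Pdk4, Hk2 and Pdk3, and the 2 were Eno3 and Ldhb. Under scaling by total counts the counts were 8 and 0, where 18.0% of all genes were higher and 6.46% lower by as much. Slc2a1 and Slc2a3 were at least 1.5-fold higher, beside 3.45% of all genes, and 0 members were 1.5-fold lower, beside 1.88%. At 2-fold there were 0 members either way, beside 0.605% of all genes higher and 0.173% lower. Abundant genes, those averaging 100 CPM or more, numbered 1706, with 23 members among them. Of these 23, Slc2a1 and Hk2 were at least 25% higher, beside 2.99% of abundant genes, and Eno3 and Ldhb at least 20% lower, beside 9.91%. At 1.5-fold 1 abundant member, Slc2a1, was higher, beside 0.645%, and 0 were lower, beside 0.938%. The median log2 ratio was -0.03 for the 23 members and -0.06 for all abundant genes.

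**Figure D1:**
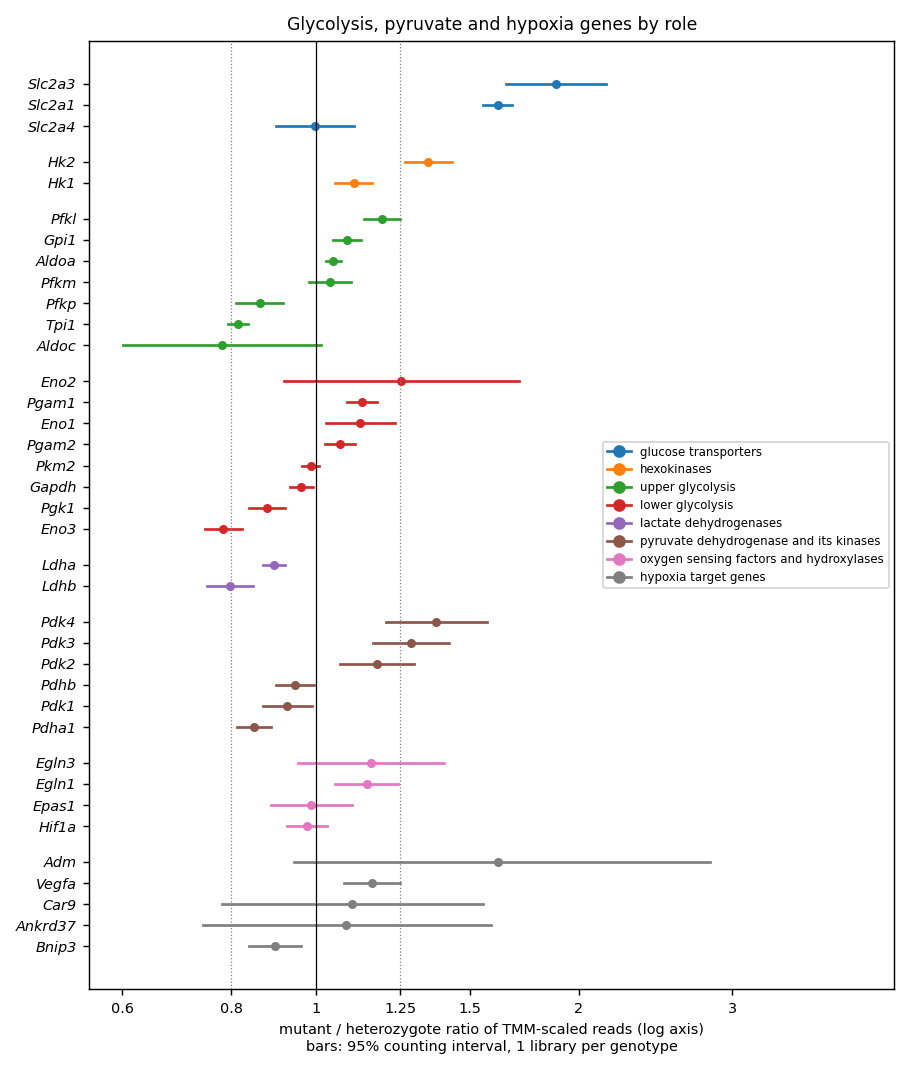
Mutant-to-heterozygote ratio of TMM-scaled reads (log axis) for each of the 37 genes, grouped by role; points are the ratio of the 2 libraries, bars the 95% counting interval, and dotted lines mark 20% lower and 25% higher. Slc2a3 (1.88), Slc2a1 (1.62) and Hk2 (1.34) stand to the right and Eno3 (0.784) and Ldhb (0.798) to the left, while most enzymes lie between the dotted lines.

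The members with the highest log2 ratios were the transporters that let glucose in, Slc2a3 and Slc2a1. Slc2a1 encodes GLUT1, the main glucose transporter of the embryonic heart (chromosome 4, 118781373 to 118809932, in the files' own coordinates). It had 4275 and 7434 reads, or 316 and 511 CPM. The ratio was 1.62 (1.56 to 1.68), which placed Slc2a1 at rank 8 of the 1706 abundant genes, counted from the highest log2 ratio. Slc2a3, on chromosome 6 from 122677844 to 122692537, encodes GLUT3, a high-affinity transporter best known from neurons. It had 338 and 685 reads, or 25.0 and 47.1 CPM, and a ratio of 1.88 (1.65 to 2.15). Among all 16185 genes it stood at rank 137. Neuronal markers were scarce in both libraries: the 8 markers summed to 6.80 and 7.35 CPM, and 4 of them passed the floor. Whether they bear on Slc2a3 was not tested. Slc2a4, the insulin-responsive transporter GLUT4 of muscle, had 731 and 785 reads, or 54.0 and 53.9 CPM (ratio 0.998, 0.901 to 1.11), and a second model named GLUT4 lies on the same strand and counts nearly the same reads (728 and 782).

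The make-up of the transporter family differed between the libraries accordingly. GLUT1 took 80.0% of the family's reads in the control (Wilson 95% interval 78.9 to 81.0) and 83.5% in the mutant (82.7 to 84.2). GLUT4 took 13.7% (12.8 to 14.6) and 8.82% (8.24 to 9.42). Reads of all 3 transporters together numbered 5344 and 8904, a ratio of 1.55 (1.496 to 1.60). Per kilobase of the longest coding transcript the order was the same in both libraries. Slc2a1 came first with 96.9 and 157 CPM per kilobase, Slc2a4 followed with 21.4 in each, and Slc2a3 was last with 6.31 and 11.9.

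Hexokinases make up the next step. Hk2, the inducible isoform of muscle and growing tissues (chromosome 6, 82675042 to 82724453), had 1712 and 2477 reads, or 127 and 170 CPM. Its ratio of 1.34 (1.26 to 1.43) was rank 30 among the 1706 abundant genes. Hk1, the widely expressed isoform bound to mitochondria, had 2954 and 3512 reads, or 218 and 241 CPM. The ratio of Hk1 was smaller at 1.10 (1.05 to 1.16), and its log2 ratio went from 0.14 to -0.02 once the trend with GC content and length was removed. Hk2 held 36.7% (35.3 to 38.1) of hexokinase reads in the control and 41.4% (40.1 to 42.6) in the mutant.

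**Figure D2:**
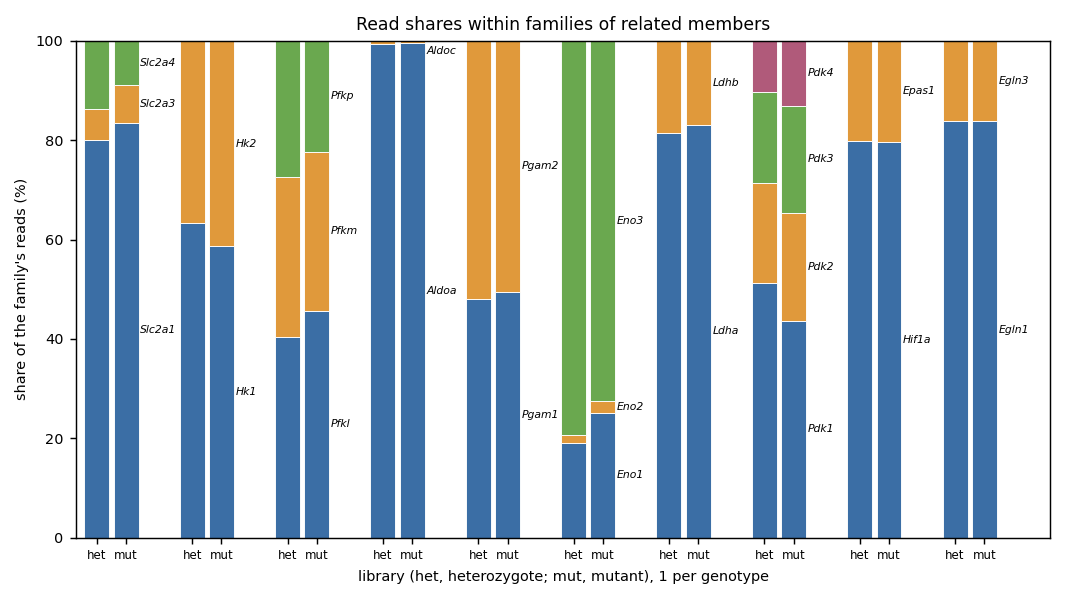
Share of reads (percent) that each member takes within its family, in the heterozygote (het) and the mutant (mut) library, without correction for transcript length. The shares differ for the transporters, hexokinases, phosphofructokinases and pyruvate dehydrogenase kinases, those of the enolases cannot be interpreted because reads of Eno1 are split between models, and Hif1a and Epas1, and Egln1 and Egln3, divide their reads alike in both libraries.

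From hexokinase to pyruvate kinase the 17 enzyme genes summed to 6558 and 6532 CPM, a ratio of 0.996 (0.987 to 1.005). The sum counts Gapdh at both of its loci. For Eno1 it counts only the row of that name, with 874 and 1058 reads, and not the longer overlapping model with 6513 and 7068 reads. Within this total the individual steps differed in opposite directions. Phosphofructokinase, the committed step, is built from liver, muscle and platelet type subunits. Pfkl had 3032 and 3889 reads (224 and 267 CPM, ratio 1.19, 1.136 to 1.2502) and Pfkm 2432 and 2718 (ratio 1.04, 0.983 to 1.10). Pfkp had 2057 and 1909 reads (ratio 0.862, 0.810 to 0.918). A model that overlaps it on the same strand, AK032401, had 713 and 592 reads (ratio 0.772, 0.691 to 0.862). Pitrm1, which overlaps it on the opposite strand, had 1186 and 1088 (ratio 0.852, 0.784 to 0.926). How far these models share reads with Pfkp was not tested. Pfkl took 40.3% (39.2 to 41.4) of the family in the control and 45.7% (44.6 to 46.7) in the mutant, and Pfkp 27.4% (26.4 to 28.4) and 22.4% (21.5 to 23.3). Without the GC trend the log2 ratio of Pfkl was 0.09 instead of 0.25, that of Pfkm -0.03 instead of 0.05, and that of Pfkp -0.21 in both cases.

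The remaining upper steps differed less or had few reads. Gpi1, glucose phosphate isomerase, had 4961 and 5797 reads, a ratio of 1.09 (1.05 to 1.13). Aldoa, the muscle aldolase and the member with the highest CPM, had 19075 and 21491 reads (1410 and 1476 CPM, ratio 1.05, 1.03 to 1.07). Aldoc, the brain type, took only 132 and 111 reads, with a ratio of 0.781 whose interval (0.602 to 1.01) included 1. With 1 CPM added it stayed just short of 20% lower. Tpi1, which interconverts the triose phosphates, was lower, with 12018 and 10539 reads, or 888 and 724 CPM (ratio 0.815, 0.794 to 0.837). Its log2 ratio of -0.30 was -0.21 with total-count scaling and -0.27 without the GC trend.

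Among the lower steps Eno3, the muscle enolase (chromosome 11, 70470706 to 70476015), was lowest in the mutant relative to the heterozygote. It had 3619 and 3052 reads, or 268 and 210 CPM, a ratio of 0.784 (0.747 to 0.823). A shorter model named ENO3, which covers the start of the gene on the same strand, showed 1408 and 1136 reads (ratio 0.750, 0.693 to 0.811). Other muscle genes, Ckm and Acta1 among them named after their values were seen, can be set beside it: skeletal muscle markers summed to 527 and 416 CPM, with Ckm at 305 and 139 CPM but Acta1 at 109 and 194 CPM, and whether they bear on Eno3 was not tested. Pgam2, the muscle phosphoglycerate mutase, was not lower, with 4820 and 5530 reads (ratio 1.07, 1.03 to 1.11), and its ubiquitous relative Pgam1 had 4461 and 5421 (ratio 1.13, 1.09 to 1.18).

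Reads of the ubiquitous enolase are split between models and cannot be assigned with certainty. The row named Eno1 had only 874 and 1058 reads, a ratio of 1.12 (1.03 to 1.23). A longer model over the same place on chromosome 4 had 6513 and 7068 reads (ratio 1.01, 0.975 to 1.04). The name of that model is an old one for Eno1b, a retrogene of Eno1, whose own locus on another chromosome had 13163 and 13539 reads (ratio 0.956, 0.933 to 0.979). With the overlapping model added, an alternative chosen after seeing the data, the log2 ratio of Eno1 went from 0.17 to 0.03, so the share of Eno1 within the enolase family is not interpretable. Neuronal Eno2 had 75 and 101 reads (ratio 1.251, 0.919 to 1.71).

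Gapdh, often used as a reference gene, is listed at 2 loci. Its locus on chromosome 6 had 6077 and 6196 reads (ratio 0.947, 0.914 to 0.982) and a copy on chromosome 11 had 1997 and 2169 (ratio 1.01, 0.949 to 1.07). The sum of both had a log2 ratio of -0.05, which was 0.03 under total-count scaling. Pgk1, which makes the first ATP of the pathway, had 3672 and 3475 reads, a ratio of 0.879 (0.839 to 0.921). Pyruvate kinase, listed as Pkm2 and covering both splice forms of Pkm, had 14744 and 15656 reads (1090 and 1075 CPM, ratio 0.987, 0.965 to 1.009).

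**Figure D3:**
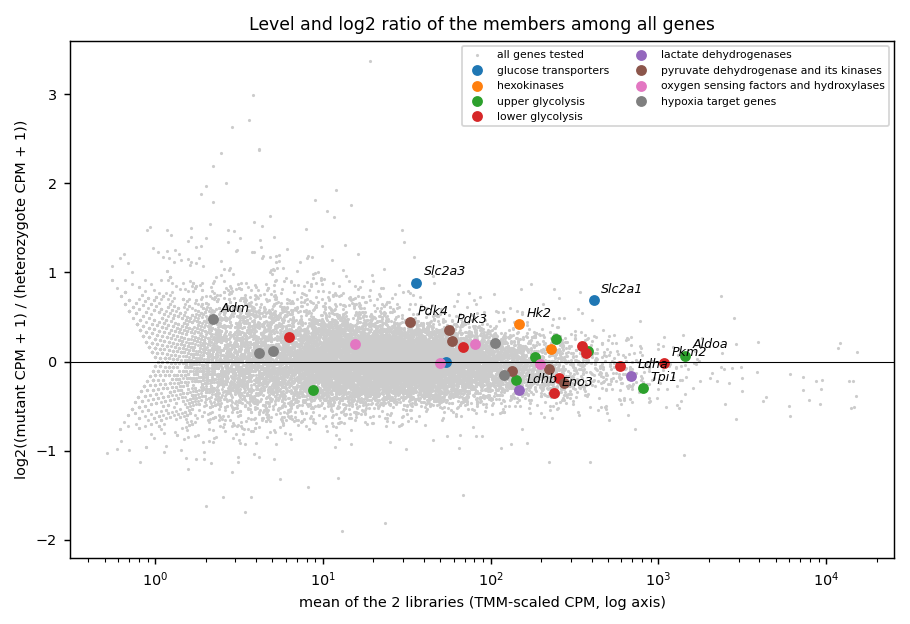
Mean level of the 2 libraries (TMM-scaled CPM, log axis) against the log2 ratio with 1 CPM added, for all 16185 genes tested (grey) and the 37 members (coloured by role). Slc2a1 lies above nearly all genes of similar level at a log2 ratio of 0.69, while the abundant enzymes Aldoa and Pkm2 lie close to 0.

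Both lactate dehydrogenase genes were lower in the mutant, under every scaling tried and without the GC trend. Ldha, whose subunit favours the making of lactate, had 9730 and 9377 reads, or 719 and 644 CPM (ratio 0.895, 0.870 to 0.921). Ldhb, the heart-type subunit that favours the use of lactate, had 2231 and 1915 reads, or 165 and 132 CPM (chromosome 6, 142438769 to 142456463). The ratio of Ldhb was 0.798 (0.750 to 0.848). As a share of lactate dehydrogenase reads Ldhb was at 18.7% (17.96 to 19.4) in the control and 17.0% (16.3 to 17.7) in the mutant.

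Genes of pyruvate dehydrogenase and its kinases went both ways, 3 with a log2 ratio above 0 and 3 below. Pdha1, the alpha subunit of the E1 enzyme, had 3975 and 3632 reads (ratio 0.849, 0.811 to 0.888). Pdhb, the beta subunit, had 3096 and 3153 (ratio 0.946, 0.900 to 0.995), and its log2 ratio of -0.08 became 0.08 without the GC trend and 0.008 with total-count scaling. Of the inhibitory kinases, Pdk4, the isoform induced by fasting and fatty acids, had 377 and 557 reads, or 27.9 and 38.3 CPM. The ratio of Pdk4 was 1.37 (1.20 to 1.57), and the gene lies on chromosome 6 from 5433351 to 5446278. Pdk3, on chromosome X from 91009955 to 91077434, had 668 and 924 reads, or 49.4 and 63.5 CPM (ratio 1.29, 1.16 to 1.42). Pdk2, the most widely expressed isoform, had 732 and 925 reads (ratio 1.17, 1.06 to 1.30). Pdk1, the isoform best known as a hypoxia target, was the exception with 1871 and 1868 reads, or 138 and 128 CPM (ratio 0.928, 0.870 to 0.990). Its share of kinase reads was 51.3% (49.7 to 52.9) against 43.7% (42.2 to 45.2). Per kilobase the kinases were closer to each other than by reads. Pdk1 was the first of the 4 in the heterozygote at 26.7 CPM per kilobase, and Pdk3 the first in the mutant at 30.0.

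The hypoxia-inducible factors that carry the oxygen signal have their alpha subunits encoded by Hif1a and Epas1. Hif1a had 2691 and 2832 reads, or 199 and 195 CPM (ratio 0.978, 0.927 to 1.03), and Epas1, the gene of HIF-2 alpha, had 678 and 721, or 50.1 and 49.5 CPM (ratio 0.988, 0.889 to 1.10). Both intervals included 1, and the sign of both log2 ratios flipped with total-count scaling. These proteins are controlled mainly by degradation, which RNA does not show. Of the oxygen-sensing prolyl hydroxylase genes, Egln1 had 1022 and 1258 reads (ratio 1.14, 1.05 to 1.24) and Egln3 196 and 244 (ratio 1.16, 0.955 to 1.40). Each ratio was above 1, but the interval of Egln3 included 1. The log2 ratio of Egln1 went from 0.19 to 0.05 without the GC trend.

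The 5 hypoxia targets among the members differed in direction. Vegfa, the angiogenic growth factor, had 1323 and 1651 reads, or 97.8 and 113 CPM (ratio 1.16, 1.08 to 1.247). A second model, Vegf, that covers the start of the gene and can share its reads had 324 and 507 (ratio 1.45, 1.26 to 1.68). Bnip3, a mitophagy receptor, had 1720 and 1661 reads, or 127 and 114 CPM (ratio 0.897, 0.838 to 0.960). Its log2 ratio of -0.16 was 0.09 without the GC trend. Adm, the vasodilator peptide adrenomedullin, had 23 and 40 reads (ratio 1.62, 0.944 to 2.83) and its place on chromosome 7 is 117771183 to 117773333. Car9, a carbonic anhydrase that is nearly silent without hypoxia in many tissues, had 65 and 77 reads (ratio 1.10, 0.781 to 1.56), and Ankrd37 had 54 and 63 (ratio 1.08, 0.742 to 1.59). At this depth no difference of these last 3 genes was detectable beyond counting error.

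Lists of further genes of the same processes were examined beside the members. Of 32 other oxygen sensing and hypoxia genes, 31 passed the floor, with a median log2 ratio of 0.19. Above 0 were 23 of the 31, beside 48.8% of all genes. At least 25% higher were 9 of the 31 and at least 20% lower 0, beside 12.4% and 10.7% of all genes. Ndrg1, a stress-responsive gene, had 200 and 456 reads (14.8 and 31.3 CPM, ratio 2.12, 1.79 to 2.51). Ddit4, an inhibitor of mTORC1 signalling also known as REDD1, had 320 and 661 reads (23.7 and 45.4 CPM, ratio 1.92, 1.68 to 2.20). Other genes of this list, chosen once their values were known, were also above 1: Bhlhe40 1.47 (1.26 to 1.73), the collagen prolyl hydroxylase gene P4ha2 1.42 (1.245 to 1.61) and the oxidoreductase gene Ero1l 1.32 (1.18 to 1.48). Bnip3l, the closest relative of Bnip3, was the lowest of the list with 1396 and 1263 reads (ratio 0.841, 0.778 to 0.908). Its log2 ratio of -0.25 was -0.09 without the GC trend, where Kdr was the lowest at -0.21. Without the GC trend the median of this list was 0.13, with 10 at least 25% higher, beside 9.76% of all genes with a GC value.

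**Figure D4:**
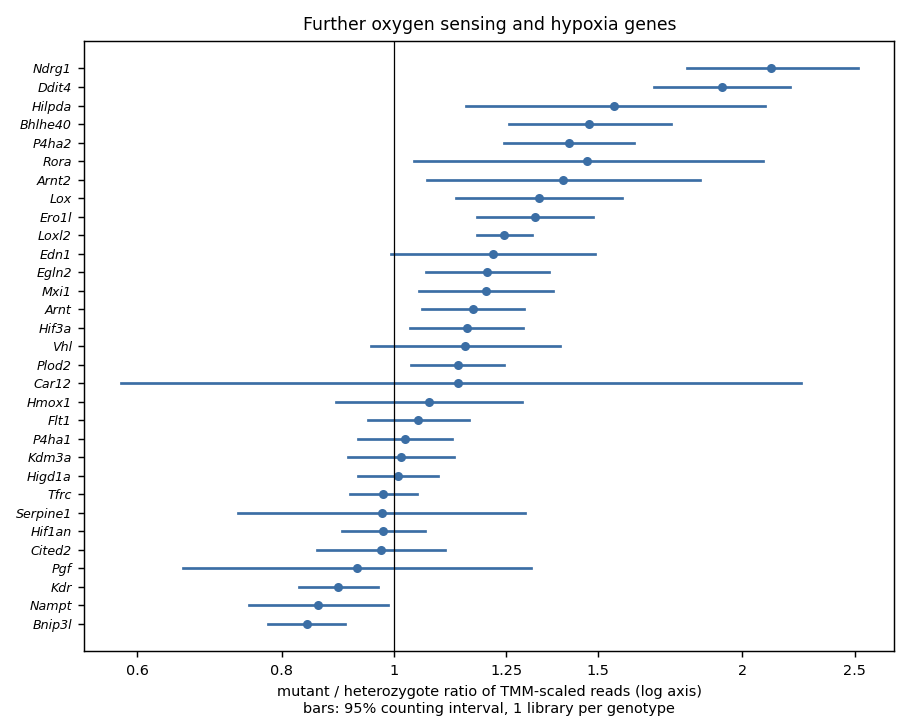
Mutant-to-heterozygote ratio of TMM-scaled reads (log axis) for the 31 further oxygen sensing and hypoxia genes that passed the floor; points are ratios of the 2 libraries and bars 95% counting intervals. Ndrg1 (2.12) and Ddit4 (1.92) lead, and Bnip3l (0.841) is at the other end.

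Of 38 other glucose, lactate and pyruvate genes 30 passed the floor, with a median log2 ratio of 0.01, 15 above and 15 below 0. Of these, 4 were at least 25% higher and 3 at least 20% lower, or 13.3% and 10.0% of the list beside 12.4% and 10.7% of all genes. Pfkfb3, named after its value was seen, makes the activator of phosphofructokinase and had 328 and 483 reads (ratio 1.37, 1.19 to 1.58). Bpgm, an enzyme of red cells, was lower with 464 and 392 reads (ratio 0.785, 0.684 to 0.900), beside the lower erythroid markers given above; their part in this was not tested. All 20 genes of glycogen and the pentose phosphate route passed the floor, with a median of -0.07, 8 above 0 and 12 below. In this list 0 were at least 25% higher, beside 12.4% of all genes, and 1 was at least 20% lower, beside 10.7%. Gyg, the primer protein of glycogen, had a ratio of 0.936 (0.915 to 0.957) and the muscle phosphorylase gene Pygm one of 1.11 (1.06 to 1.17).

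Across all genes the log2 ratio was higher where the transcript had more GC: the median was -0.17 over the 10% of genes with the least GC and 0.19 over the 10% with the most. The members had a median GC content of 52.8% against 50.3% for genes tested, and 27 of the 37 were above the latter. After a fit that removed the trend with GC and length, the median of the members went from 0.09 to 0.07. The members at least 25% higher and at least 20% lower then numbered 6 and 2, beside 9.76% and 6.31% of all genes with a GC value. The 2 lower ones were then Eno3 and Aldoc (-0.34), while Ldhb, at -0.26, no longer reached the limit. Slc2a3 then stood at 0.88, Slc2a1 at 0.61, Pdk4 at 0.54, Pdk3 at 0.46 Hk2 at 0.33 and Eno3 at -0.35.

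**Figure D5:**
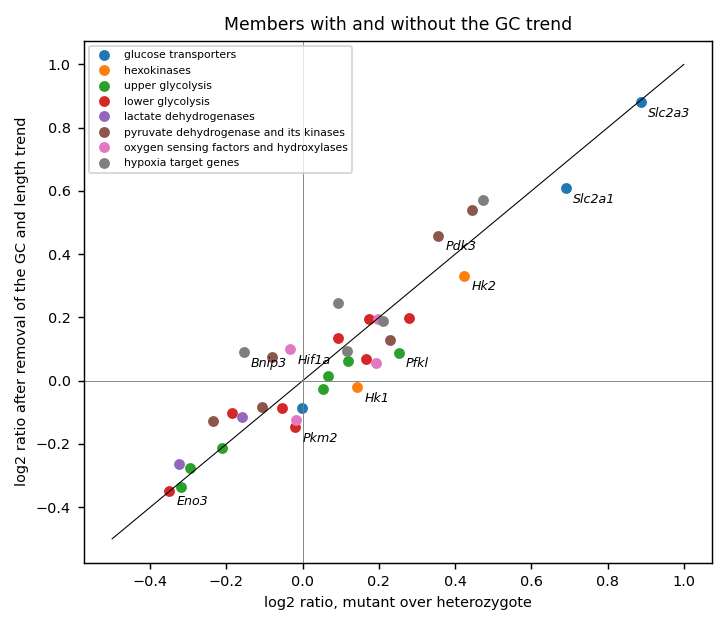
Log2 ratio of each of the 37 members before (x axis) and after (y axis) removal of the trend with transcript GC content and length; the diagonal marks equal values and colours give the role. Slc2a1 and Slc2a3 stay the highest, while Hk1, Pfkm, Bnip3, Hif1a and Pdhb cross 0.

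The DNA in front of these genes was read for the core of the hypoxia response element, to show which members carry the letters that hypoxia-inducible factors recognise. RefSeq promoter sequences (GRCm38.p6) were matched for 34 of the 37 members. The 250 bases before each annotated start were searched on both strands for ACGTG and GCGTG. Read on the other strand these appear as CACGT and CACGC, and a palindrome CACGTG counts as 2 overlapping matches. At least 1 match was present in 37 of 48 promoters of members (77.1%), against 38.6% of all 32851 promoters. Both cores contain CpG, and the members' promoters held a median of 13 CpG against 6 overall. Among promoters with at least 13 CpG the shares were 23 of 26 for members and 66.8% overall. Matches were found for 5 of the 5 higher members that have a promoter here, for 2 of 2 lower ones and, in at least 1 promoter each, for 23 of the other 27. These are counts of genes, while the shares above are of promoters, and no share over all genes was computed. Some windows of the same gene overlap, as for Aldoa, Eno1 and Pfkm, so a match can count for more than 1 promoter. A match describes the letters only and is not a measured binding site.

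The windows of 5 genes are printed, for the 2 abundant members that were higher, the 2 that were lower, and Ldha, which has more matches than these others and was lower by a smaller amount. Capitals mark the matches, each sequence runs 5′ to 3′ along the gene, and the last base lies just before the start. Slc2a1 (chr4:119108495-119108744, plus strand) has matches that begin at -61 and -36, counted from the start. Hk2 (chr6:82774455-82774704, minus strand) has them at -226 and -52, both as ACGTG on the opposite strand. The first of the 2 Ldha promoters (chr7:46845554-46845803, plus strand) holds 5, of which 4 come from a pair of CACGTG palindromes. Ldhb (chr6:142507958-142508207, minus strand) and Eno3 (chr11:70656926-70657175, plus strand) hold 1 match of GCGTG each, at -126 and -130, the latter on the opposite strand.
Slc2a1: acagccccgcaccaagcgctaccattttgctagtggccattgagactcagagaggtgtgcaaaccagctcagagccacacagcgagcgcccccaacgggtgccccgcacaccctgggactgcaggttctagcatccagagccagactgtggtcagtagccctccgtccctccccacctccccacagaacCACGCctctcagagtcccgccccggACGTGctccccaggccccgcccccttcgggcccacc
Hk2: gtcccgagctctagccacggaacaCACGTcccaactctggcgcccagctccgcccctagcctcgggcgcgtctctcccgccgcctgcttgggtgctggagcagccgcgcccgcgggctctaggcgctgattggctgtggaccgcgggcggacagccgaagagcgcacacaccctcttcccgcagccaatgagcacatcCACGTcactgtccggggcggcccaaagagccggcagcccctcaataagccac
Ldha: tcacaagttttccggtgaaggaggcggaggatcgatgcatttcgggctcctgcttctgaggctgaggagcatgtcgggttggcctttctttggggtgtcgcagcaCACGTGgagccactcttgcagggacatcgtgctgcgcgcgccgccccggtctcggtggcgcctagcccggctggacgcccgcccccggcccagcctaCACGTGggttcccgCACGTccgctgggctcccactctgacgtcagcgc
Ldhb: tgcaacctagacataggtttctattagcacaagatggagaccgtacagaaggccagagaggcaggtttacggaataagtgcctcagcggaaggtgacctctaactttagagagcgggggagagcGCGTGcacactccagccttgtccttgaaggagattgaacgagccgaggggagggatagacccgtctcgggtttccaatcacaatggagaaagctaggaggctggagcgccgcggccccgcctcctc
Eno3: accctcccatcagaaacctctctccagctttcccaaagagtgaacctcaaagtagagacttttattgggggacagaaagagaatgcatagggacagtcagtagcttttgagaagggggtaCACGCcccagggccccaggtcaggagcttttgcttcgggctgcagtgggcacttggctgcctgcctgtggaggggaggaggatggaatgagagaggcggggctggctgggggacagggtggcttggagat
Slc2a1 and Hk2, with 2 matches each, had ratios of 1.62 and 1.34. Ldhb and Eno3, with 1 each, had 0.798 and 0.784, and Ldha, with 5, had 0.895. These genes were picked by their ratios, and Ldha also by its matches, so they cannot show whether the number of matches goes with the ratio. Whether it does was not tested.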

How the data were processed

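RNA of the heart apex was sequenced in 1 library per genotype, per the labels. The authors deposited read counts per gene model, their CPM of each library's own total (not per length), a fold ratio and a p-value, per the file headers. The last 2 were not used. The test behind that p-value, the aligner, the counter, the use of strand and the build of the coordinates were each not given in the sources used here. Starts were shifted by 1 base to count from 1.

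Counts of 29595 models were summed by symbol to 29383 genes and scaled by TMM in edgeR 4.0.16 (R 4.3.3). The factors were 0.970 and 1.03. A gene entered the comparison when its higher library reached 1 CPM. It was compared by size only, because 1 library per group allows no test. Ratios are of scaled counts with exact conditional Poisson intervals (scipy 1.17.1). Their calculation was checked on simulated Poisson counts, the case these intervals assume. That check cannot show how well they hold for these data. Shares of reads have Wilson intervals. Without unique molecular identifiers reads are not independent molecules, so all intervals cover counting error only. The depth, 13944617 and 14122579 reads, leaves members under 100 reads with wide intervals.

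GC content and length come from the longest coding transcript of each symbol in GENCODE M21. The trend was a quadratic fit over 10861 genes averaging 5 CPM or more. Of the tested genes 81.8% had a value, and all 37 members. In the pathway and marker lists, 12 entries were matched through older symbols. Where models overlap, as for 11 members, reads can be counted for both, and without strand this includes antisense neighbours. Near-identical processed copies exist for several glycolytic genes, and how their reads were split is not stated. The members and lists were chosen with earlier results of these data known. Every member was named, and from each pathway list up to 4 genes at least 1.5-fold apart, or else the 2 with the highest mean. Some genes of these lists are not reported here. Alternatives were other scalings, pseudocounts, floors, the row with the most reads per symbol and removal of the GC trend.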

Additional observations from a re-analysis of the deposited data

How the results depend on the processing

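The median log2 ratio of the members stayed above 0 under each alternative tried, between 0.07 and 0.16. The number at least 25% higher was between 5 and 8. The share of all genes higher by as much moved too, from 5.21% (pseudocount of 5 CPM) to 18.0% (total-count scaling). At least 1.5-fold higher were 2 or 3 members, beside 3.45% of all genes in the main setting. The number at least 20% lower was 2 with TMM, beside 10.7% of all genes, and 0 under total-count scaling, beside 6.46%. It was 1 with upper-quartile scaling (9.68% of all genes) and with DESeq2 size factors (9.94%). With the median of all genes set to 0 (10.3%) and with a pseudocount of 5 CPM (5.01%) it was also 1. It was 3 with a pseudocount of 0.1 CPM, where Aldoc was added, beside 12.9%. Without the GC trend it was again 2, beside 6.31%, with Aldoc in place of Ldhb. Ldhb, Eno3 and Aldoc lie close to that limit. Total-count scaling shifted the median of all genes by 0.08. It took the median of the glycogen and pentose phosphate list from -0.07 to 0.014. The median of the other glucose, lactate and pyruvate genes, 0.01, was -0.0070 with no floor and -0.032 with a floor of 5 CPM. For 28 of 37 members the sign held under all alternatives. It changed under at least 1 for Slc2a4, Hk1, Pfkm, Gapdh, Pkm2, Pdhb, Hif1a, Epas1 and Bnip3. No paired analysis was possible because each group has 1 library. For the same reason no library could be left out. The depth limits Adm, Car9, Ankrd37, Aldoc, Eno2 and Egln3, whose counting intervals included 1.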
